A study of Mus musculus with 24 samples.

Results

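Simple epithelial keratins are the keratins of single-layered epithelia. The account follows the 4 genes of this kind named Krt7, Krt8, Krt18 and Krt19, and they are read by 6 of 20280 probes. They were chosen by name, with earlier results of these data known. The choice was among the 8973 genes that the platform annotation pairs with probes of 1 gene. Krt8 and Krt18 have 2 probes each, and Krt7 and Krt19 have 1 each. The samples are mouse cells sorted from embryoid bodies, aggregates of differentiating embryonic stem cells, by the presence (Flk1+) or absence (Flk1-) of Flk1, the VEGF receptor encoded by Kdr. The 6 groups are Flk1+ and Flk1- cells at 84 h, at 95 h and at 8 d of differentiation, with 4 samples each on 24 two-colour arrays. No other genotype, agent or strain is given in the sources used here, and no label says that the 4 samples of a group came from separate cultures, so p-values measure only how far these samples vary, and that variation may be technical. Sample RNA carried Cy5 and a common reference of homogenised whole pups carried Cy3, so a value is the log2 ratio of sample to that reference. The log base and the direction are not given in the sources used here: base 2 was assumed, which the range of the values allows, and another base would multiply all differences by 1 factor.

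Keratins are the intermediate filament proteins of epithelial cells. A filament needs a type II keratin, here Krt7 or Krt8, paired with a type I keratin, here Krt18 or Krt19, and the unpaired protein is unstable. Krt8 and Krt18 are the main pair of early embryonic epithelia such as trophectoderm and visceral endoderm, Krt19 is a type I keratin of many simple epithelia that lacks most of the tail domain, and Krt7 marks glandular and ductal epithelia. Cells that leave an epithelium to become mesoderm usually lose these proteins and gain vimentin, the intermediate filament protein of mesenchyme.

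In the RefSeq annotation of GRCm38.p6 the type II gene Krt8 (chr15:101996711-102004342, minus strand) and the type I gene Krt18 (chr15:102028216-102032026, plus strand) are transcribed away from each other, with 23873 bases between them. Krt7 (chr15:101412403-101427806, plus strand) lies on the same chromosome, and Krt19 lies at chr11:100140810-100145926. Promoters of Krt7, Krt8 and Krt18 were found in the promoter table, and they are shown because Krt8 and Krt18 encode filament partners whose values are set side by side here, while Krt7 differed between the sorts at each time. Each line gives 270 bases from RefSeq, GRCm38.p6, 5′ to 3′ on the gene's strand, of which the last 20 follow the annotated start of the gene, and capitals mark matches to a TATA box, a GC box or an AP-1 element.
Krt7: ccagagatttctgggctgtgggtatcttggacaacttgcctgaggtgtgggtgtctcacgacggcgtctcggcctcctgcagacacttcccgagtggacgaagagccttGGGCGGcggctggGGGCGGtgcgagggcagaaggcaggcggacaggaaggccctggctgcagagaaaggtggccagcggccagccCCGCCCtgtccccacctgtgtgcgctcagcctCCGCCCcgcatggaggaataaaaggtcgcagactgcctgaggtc
Krt8: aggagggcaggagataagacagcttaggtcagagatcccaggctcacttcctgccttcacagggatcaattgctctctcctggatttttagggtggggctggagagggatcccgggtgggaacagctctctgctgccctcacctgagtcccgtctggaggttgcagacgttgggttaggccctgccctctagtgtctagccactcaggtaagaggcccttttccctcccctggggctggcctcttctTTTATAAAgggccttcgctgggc
Krt18: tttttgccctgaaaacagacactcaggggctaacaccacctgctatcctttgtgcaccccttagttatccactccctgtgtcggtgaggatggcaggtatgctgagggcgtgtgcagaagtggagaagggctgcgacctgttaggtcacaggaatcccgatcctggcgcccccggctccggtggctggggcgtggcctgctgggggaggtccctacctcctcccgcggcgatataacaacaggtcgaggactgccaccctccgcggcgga
The Krt7 window is chr15:101412153-101412422, the Krt8 window chr15:102004323-102004592 and the Krt18 window chr15:102027966-102028235. The TATA box was searched as TATAAA, the GC box as GGGCGG and the AP-1 element as TGANTCA, each on both strands. Krt7 held 4 GC boxes, the nearest from 24 to 19 bases before the start. Krt8 held TATAAA on both strands in overlapping matches that span the annotated start, and no GC box. In the Krt18 window none of the 3 motifs was found, and no AP-1 element was found in any of the 3 windows. Over 32851 promoter windows of this length in the table, 12.9% held the TATA box, 34.1% the GC box and 7.23% the AP-1 element. A match is a description of letters and not of a site in use.

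Across the series, Kdr at 84 h averaged 0.98 ± 0.79 in the Flk1+ sort and -0.92 ± 0.15 in the Flk1- sort (SD, n = 4), and its groups did not overlap at any time, with differences from 1.89 to 2.93. On Flk1+ arrays 1 to 4 of 84 h Kdr was 1.80, 0.04, 1.43 and 0.67, so arrays 2 and 4 were the lowest Flk1+ arrays of the series for the sorted gene. Without the arrays named next its 84 h difference was 2.49. The lowest correlation between any 2 arrays over all features was 0.43, and all 10 measured pluripotency markers lay above 0 in Flk1- cells at 84 h, so ratios were read as sample over reference. Flk1+ arrays 2 and 4 of 84 h had the widest values (SD 1.01 and 1.00 over all probes, against 0.56 to 0.85 on the other arrays), and correlations within that group ran from 0.59 to 0.93. The spread also differed by group. In Flk1+ cells the SD ran from 0.81 to 1.01 at 84 h, 0.74 to 0.78 at 95 h and 0.56 to 0.60 at 8 d. In Flk1- cells it ran from 0.70 to 0.75, 0.71 to 0.78 and 0.59 to 0.63. Setting each array's median to 0 leaves this spread as it is. Flk1- array 4 of 84 h correlated with its group at a mean of 0.88, against 0.93 to 0.94 for the other 3, although the 8 arrays of 95 h correlated with their own groups less than that (0.73 to 0.83). Fitted array weights were 0.07, 0.10 and 0.53 for these 3 arrays. Flk1- arrays 1 and 2 and Flk1+ arrays 1 and 2 of 95 h had weights of 0.22, 0.20, 0.42 and 0.26, also below that of Flk1- array 4. The 3 arrays of 84 h are called arrays that stand apart here, a choice taken from an earlier account of these data. The main results at 84 h are given with and without them. The endothelial marker Cdh5 (VE-cadherin) differed by 1.84 (SE 0.15) between the sorts at 8 d, where it was higher in Flk1+ cells.

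The 4 keratins had different courses. From 95 h to 8 d Krt19 rose by 1.20 in Flk1+ and 0.83 in Flk1- cells. Krt8 rose over the same step by 0.60 in Flk1- cells, and by 0.38 in Flk1+ cells, where only 1 of its 2 probes was higher and the other gave -0.05. Krt18 was low in Flk1+ cells at 84 h and 1.50 higher there at 95 h, a value that rests in part on 2 arrays. Krt7 was lower in the Flk1+ sort at all 3 times, with differences of -0.83, -0.64 and -0.80. Levels are ratios to the reference and are compared within a gene only. In bulk samples, fewer keratin-bearing cells and less keratin RNA per cell cannot be told apart.

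**Figure D1:**
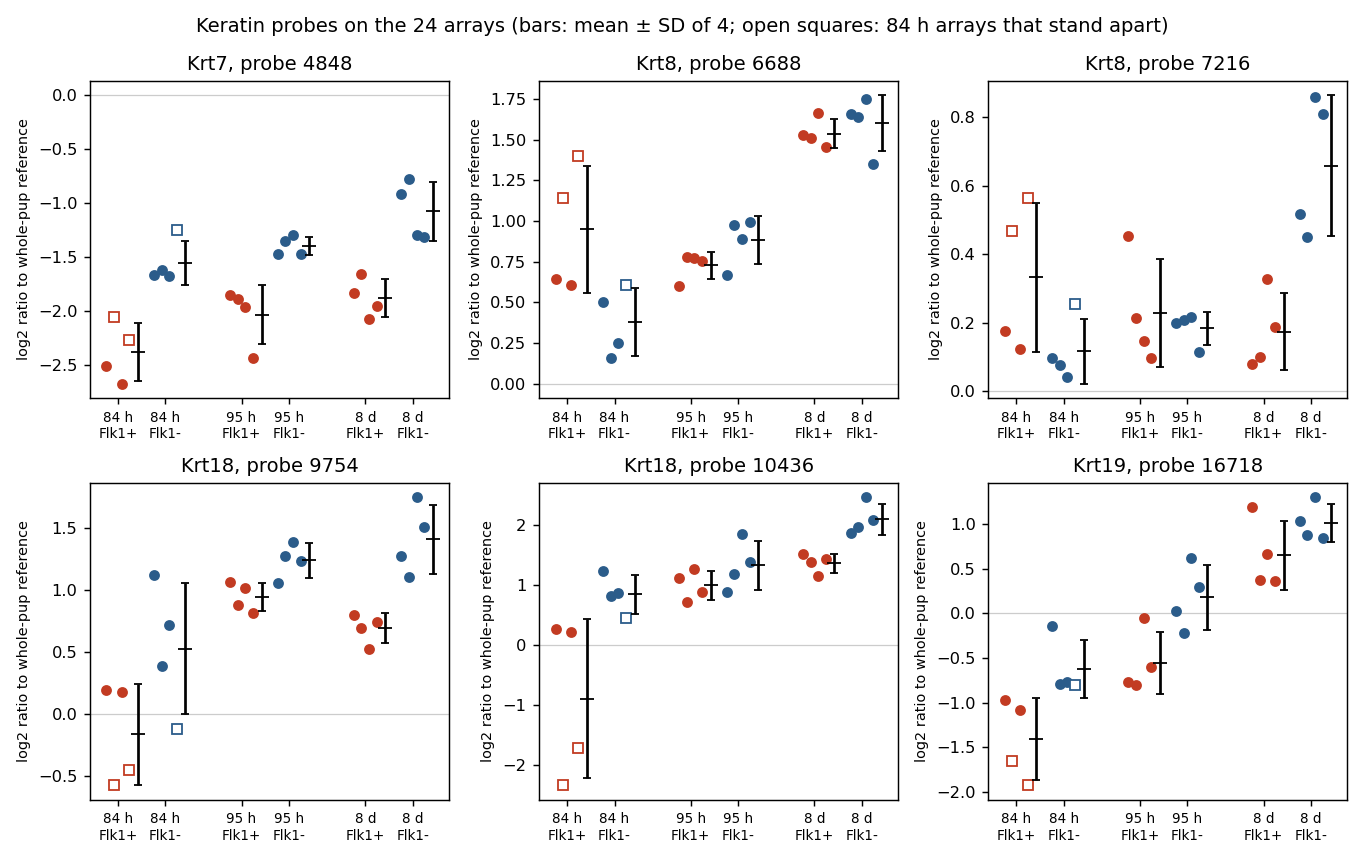
Log2 ratio of sample to whole-pup reference (vertical axis, own scale in each panel) for each of the 6 keratin probes, 1 point per array, by time and sort, with mean ± SD of 4 arrays; open squares are the 3 arrays of 84 h that stand apart. The Flk1+ points of Krt7 lie below its Flk1- points at all 3 times, and the 2 low Krt18 points at 84 h are Flk1+ arrays 2 and 4.

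Krt7, the type II keratin of glandular and ductal epithelia, gave -2.51, -2.06, -2.67 and -2.27 on Flk1+ arrays 1 to 4 of 84 h, against -1.66, -1.62, -1.68 and -1.25 on the Flk1- arrays. At 95 h it gave -1.85, -1.89, -1.96 and -2.44 in Flk1+ cells, against -1.47, -1.35, -1.30 and -1.47 in Flk1- cells. At 8 d it gave -1.83, -1.66, -2.08 and -1.95 in Flk1+ cells, against -0.92, -0.78, -1.29 and -1.32 in Flk1- cells. Each of the 24 values was below 0, that is, below the pup reference, and at each time all 4 Flk1+ arrays lay below all 4 Flk1- arrays. The difference between Flk1+ and Flk1- cells was -0.83 (SE 0.16, 95% CI -1.15 to -0.50, adjusted p = 0.00182 by limma with Benjamini-Hochberg adjustment) at 84 h, -0.64 (SE 0.16, CI -0.97 to -0.31, adjusted p = 0.0313) at 95 h and -0.80 (SE 0.16, CI -1.13 to -0.48, adjusted p = 0.0201) at 8 d, or 1.77-fold, 1.56-fold and 1.75-fold lower in Flk1+ cells.

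Among the 6 groups Krt7 was highest in Flk1- cells at 8 d (-1.08 ± 0.27), followed by Flk1- cells at 95 h (-1.40 ± 0.09) and 84 h (-1.55 ± 0.20), and then Flk1+ cells at 8 d (-1.88 ± 0.18), 95 h (-2.04 ± 0.27) and 84 h (-2.38 ± 0.27). Each group overlapped the next one in this order. None of its 4 differences between consecutive times passed the test. Quantile normalization reduced the 84 h difference to -0.35 (adjusted p = 0.224), and without the 3 arrays that stand apart it was -0.94 (adjusted p = 0.00236). At 95 h and 8 d the value stayed between -0.95 and -0.51 in each setting tried, while its call ended without any 1 of 5 arrays at each time, at adjusted p = 0.0502 to adjusted p = 0.124 at 95 h (Flk1+ array 4 and Flk1- arrays 1, 2, 3 and 4) and adjusted p = 0.0511 to adjusted p = 0.0886 at 8 d (Flk1+ arrays 1, 3 and 4 and Flk1- arrays 1 and 2). The 95 h call also ended with quantile normalization (-0.58, adjusted p = 0.106), with array weights (-0.67, adjusted p = 0.195) and from only the arrays compared (adjusted p = 0.137).

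Krt8, the type II partner of Krt18, gave different pictures by its 2 probes. Probe 6688 read 0.65, 1.14, 0.60 and 1.40 in Flk1+ cells at 84 h, against 0.50, 0.16, 0.25 and 0.60 in Flk1- cells. At 95 h it read 0.60, 0.78, 0.77 and 0.75 in Flk1+ cells, against 0.67, 0.97, 0.89 and 1.00 in Flk1- cells. At 8 d it read 1.53, 1.51, 1.66 and 1.45 in Flk1+ cells, against 1.66, 1.64, 1.75 and 1.35 in Flk1- cells. All 8 arrays of 8 d lay above all 8 arrays of 95 h on this probe, and at 84 h the 2 highest Flk1+ values came from arrays 2 and 4. Fitted with every probe as a feature of its own, probe 6688 rose by 0.81 (SE 0.15, adjusted p = 0.000393) in Flk1+ cells and by 0.72 (SE 0.15, adjusted p = 0.00144) in Flk1- cells from 95 h to 8 d.

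Probe 7216 of Krt8 read 0.17, 0.47, 0.12 and 0.56 in Flk1+ cells at 84 h, against 0.10, 0.08, 0.04 and 0.25 in Flk1- cells. At 8 d it read 0.08, 0.10, 0.33 and 0.19 in Flk1+ cells, against 0.52, 0.45, 0.86 and 0.81 in Flk1- cells, and all 4 Flk1+ arrays lay below all 4 Flk1- arrays. Its sort difference at 8 d was -0.48 (SE 0.12, adjusted p = 0.0782), where probe 6688 gave -0.06 (SE 0.15). From 95 h to 8 d it rose by 0.47 (SE 0.12, adjusted p = 0.00602) in Flk1- cells, and in Flk1+ cells it differed by -0.05 (SE 0.12, adjusted p = 0.797). Both probes therefore rose by 8 d in Flk1- cells, and in Flk1+ cells only probe 6688 passed the test, a contrast between probes that was not itself tested.

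The mean of both Krt8 probes differed at 84 h by 0.39 (SE 0.12, CI 0.15 to 0.63, adjusted p = 0.0304), higher in the Flk1+ sort, with overlapping arrays. By single probes it was 0.57 (adjusted p = 0.0185) for 6688 and 0.22 (adjusted p = 0.202) for 7216. The call rests on 1 probe and on few arrays: without the 3 that stand apart the difference was 0.20 (adjusted p = 0.25), without Flk1+ array 2 it was 0.34 (adjusted p = 0.085), without Flk1+ array 4 it was 0.28 (adjusted p = 0.119), and without Flk1- array 1, 2 or 3 it was 0.41, 0.35 or 0.36 with adjusted p from 0.0611 to 0.097. It also ended with quantile normalization (0.23, adjusted p = 0.166), with array weights (0.23, adjusted p = 0.0914) and from only the arrays compared (adjusted p = 0.23). At 95 h the difference was -0.06 (CI -0.30 to 0.18, adjusted p = 0.988) and at 8 d -0.27 (CI -0.51 to -0.03, adjusted p = 0.859), although the arrays of 8 d did not overlap. The order of the group means was Flk1- 8 d (1.13 ± 0.12), Flk1+ 8 d (0.86 ± 0.09), Flk1+ 84 h (0.64 ± 0.30), Flk1- 95 h (0.53 ± 0.07), Flk1+ 95 h (0.48 ± 0.04) and Flk1- 84 h (0.25 ± 0.15). Of the neighbours in this order only the 2 sorts of 8 d were apart in all their arrays.

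Krt18, the type I partner of Krt8, was low on 2 arrays. Probe 10436 read 0.26, -2.34, 0.22 and -1.71 on Flk1+ arrays 1 to 4 of 84 h, against 1.24, 0.82, 0.87 and 0.46 in Flk1- cells. Probe 9754 read 0.20, -0.57, 0.18 and -0.45 in Flk1+ cells at that time, against 1.13, 0.39, 0.72 and -0.12 in Flk1- cells. On both probes the 2 lowest of all 24 arrays were Flk1+ arrays 2 and 4, which stand apart, and Flk1- array 4 was the lowest of its group. The remaining Flk1+ arrays 1 and 3 lay below Flk1- arrays 1, 2 and 3 on each probe.

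At 95 h probe 10436 read 1.12, 0.72, 1.26 and 0.89 in Flk1+ cells, against 0.89, 1.18, 1.85 and 1.40 in Flk1- cells. At 8 d it read 1.51, 1.38, 1.15 and 1.43 in Flk1+ cells, against 1.87, 1.97, 2.47 and 2.08 in Flk1- cells. Probe 9754 read 1.06, 0.88, 1.02 and 0.82 in Flk1+ cells at 95 h, against 1.06, 1.28, 1.39 and 1.24 in Flk1- cells, and 0.80, 0.70, 0.53 and 0.75 in Flk1+ cells at 8 d, against 1.28, 1.11, 1.75 and 1.51 in Flk1- cells. The sorts overlapped at 95 h, and at 8 d all 4 Flk1+ arrays lay below all 4 Flk1- arrays on both probes.

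Averaged over its probes, Krt18 was lower in Flk1+ than in Flk1- cells at 84 h by -1.21 (SE 0.29, CI -1.81 to -0.62, adjusted p = 0.00975), or 2.32-fold. Without the 3 arrays that stand apart the difference was -0.64 (adjusted p = 0.0545), and from only the 8 arrays compared the call ended (adjusted p = 0.177). At 95 h it was -0.31 (CI -0.91 to 0.28, adjusted p = 0.866) and at 8 d -0.72 (SE 0.29, CI -1.32 to -0.13, adjusted p = 0.717). The 8 d difference passed in a fit of the 8 arrays compared (adjusted p = 0.0201), with array weights (-0.72, adjusted p = 0.000419) and without the 3 arrays of 84 h that stand apart (adjusted p = 0.0221), settings that change the spread estimate more than the value.

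In Flk1+ cells the difference of Krt18 between 95 h and 84 h was 1.50 (SE 0.29, CI 0.90 to 2.09, adjusted p = 0.00288), or 2.82-fold, with no overlap. Without the 3 arrays that stand apart this was 0.76 (adjusted p = 0.0238), with array weights 0.87 (adjusted p = 0.0689), and from only the arrays compared adjusted p = 0.19. The other 3 differences of Krt18 between consecutive times did not pass in the main fit: 0.60 for 95 h against 84 h in Flk1- cells (adjusted p = 0.344, and 0.42 without the 3 arrays), 0.06 for 8 d against 95 h in Flk1+ cells (adjusted p = 0.911) and 0.47 for 8 d against 95 h in Flk1- cells (adjusted p = 0.291). The last passed with quantile normalization (0.68, adjusted p = 0.0379) and without the 3 arrays (0.47, adjusted p = 0.0254). The first passed with array weights (0.59, adjusted p = 0.04925). The 0.06 for 8 d against 95 h in Flk1+ cells averages probes of opposite direction, neither of them called. Probe 9754 gave -0.25 (SE 0.21), with all its arrays of 8 d below all those of 95 h, and probe 10436 gave 0.37 (SE 0.40). Flk1- cells at 8 d had the highest mean (1.76 ± 0.26), followed by Flk1- 95 h (1.29 ± 0.27), Flk1+ 8 d (1.03 ± 0.14), Flk1+ 95 h (0.97 ± 0.17), Flk1- 84 h (0.69 ± 0.42) and Flk1+ 84 h (-0.53 ± 0.87), and each overlapped the next.

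Krt19, a type I keratin, had group means that rose from 84 h to 95 h and from 95 h to 8 d in both sorts. It gave -0.97, -1.65, -1.09 and -1.93 in Flk1+ cells at 84 h, against -0.14, -0.79, -0.77 and -0.80 in Flk1- cells. At 95 h it gave -0.77, -0.80, -0.05 and -0.60 in Flk1+ cells, against 0.03, -0.22, 0.62 and 0.30 in Flk1- cells. At 8 d it gave 1.19, 0.37, 0.67 and 0.36 in Flk1+ cells, against 1.03, 0.87, 1.30 and 0.84 in Flk1- cells. All 8 arrays of 8 d were above 0 and all 8 of 84 h below it, and the sorts did not overlap at 84 h but did at 95 h and 8 d.

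Within Flk1+ cells Krt19 was 0.85 (SE 0.24, CI 0.36 to 1.35, adjusted p = 0.0194) higher at 95 h than at 84 h and 1.20 (SE 0.24, CI 0.71 to 1.70, adjusted p = 0.000837) higher at 8 d than at 95 h, or 1.81-fold and 2.30-fold. Within Flk1- cells it was 0.81 (SE 0.24, adjusted p = 0.0865, and 0.75 without the 3 arrays that stand apart) higher at 95 h than at 84 h and 0.83 (SE 0.24, adjusted p = 0.0175) higher at 8 d than at 95 h. The rise to 8 d in Flk1+ cells was called in each of 17 settings, with values from 1.02 to 1.37. The earlier rise in Flk1+ cells was 0.47 (adjusted p = 0.312) without the 3 arrays that stand apart, and its call also ended without Flk1+ array 2 or 4 of 84 h (0.77 and 0.68) or array 3 of 95 h (0.69), with quantile normalization (0.53), with array weights (0.60) and from only the arrays compared (adjusted p = 0.219). The rise to 8 d in Flk1- cells lost its call without array 2 of 95 h (0.70, adjusted p = 0.0615) or array 3 of 8 d (0.74, adjusted p = 0.0614).

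Between the sorts Krt19 was lower in Flk1+ cells at 84 h by -0.78 (SE 0.24, CI -1.28 to -0.29, adjusted p = 0.036). Without the 3 arrays that stand apart this was -0.46 (adjusted p = 0.397), and leaving out Flk1+ array 2 or 4 (-0.70 and -0.61) or Flk1- array 1, 2 or 3 (-0.62, -0.84 and -0.83) also ended the call, as did quantile normalization (-0.38), array weights (-0.45) and a fit of only the arrays compared (adjusted p = 0.157). At 95 h the difference was -0.74 (SE 0.24, CI -1.23 to -0.24, adjusted p = 0.147), and with replicate numbers as a block, fitted within each time, where samples of 1 number tended to vary together, it passed at adjusted p = 0.0124. At 8 d it was -0.36 (CI -0.86 to 0.13, adjusted p = 1). The groups ran from Flk1- 8 d (1.01 ± 0.21) through Flk1+ 8 d (0.65 ± 0.39), Flk1- 95 h (0.18 ± 0.36), Flk1+ 95 h (-0.56 ± 0.35) and Flk1- 84 h (-0.63 ± 0.33) to Flk1+ 84 h (-1.41 ± 0.46), and only the last 2 did not overlap.

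**Figure D2:**
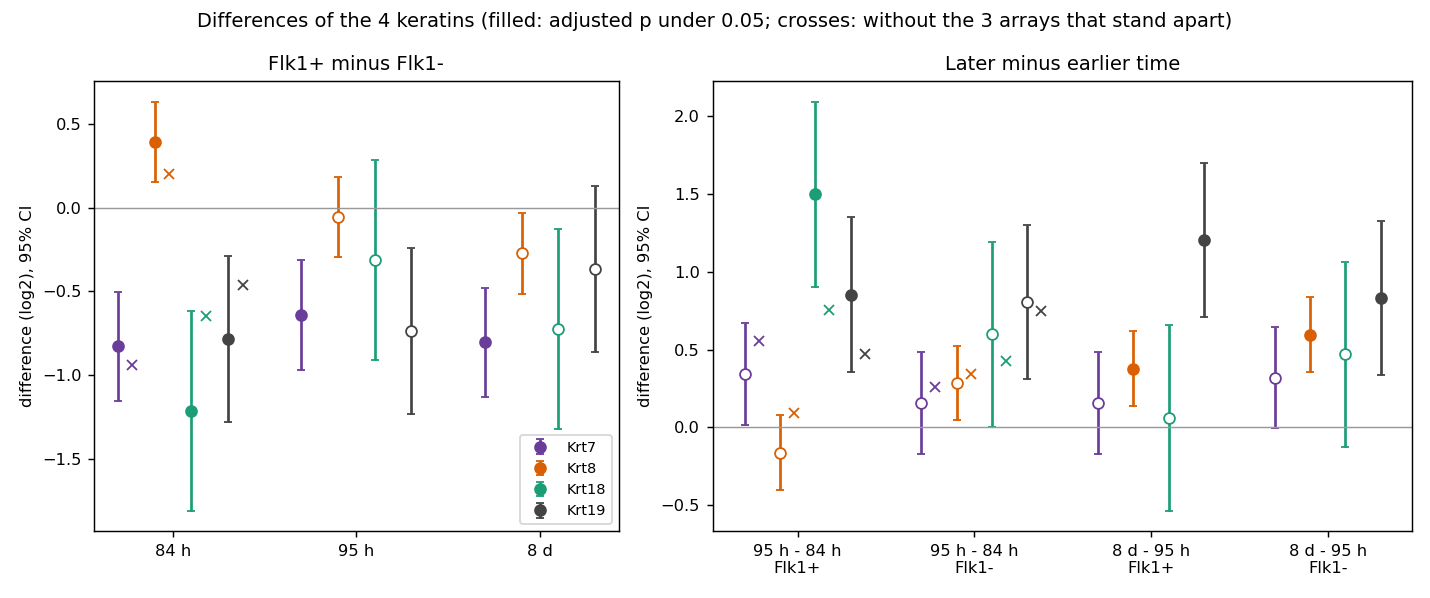
Log2 differences with 95% confidence intervals for the 4 keratins, Flk1+ minus Flk1- at each time (left) and later minus earlier time in each sort (right); filled circles passed at adjusted p under 0.05, and crosses give the value without the 3 arrays of 84 h that stand apart. Krt7 is below 0 at all 3 times on the left, and the 1.50 of Krt18 for 95 h against 84 h in Flk1+ cells is 0.76 without these arrays.

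By comparison, at 84 h all 4 keratins were called between the sorts, 1 higher in Flk1+ cells (Krt8) and 3 lower, where 13.5% of the 17440 features were called, 5.3% higher and 8.18% lower. Their arrays did not overlap for 2 of 4, against 17.4% of all features. At 95 h 1 of 4 was called (Krt7, lower), where 2.03% of all features were called, 0.659% higher and 1.37% lower, and 1 of 4 had no overlap, against 4.81%. At 8 d 1 of 4 was called (Krt7, lower), where 0.373% of all features were called, 0.149% higher and 0.224% lower, and 3 of 4 had no overlap between the sorts, against 15.9%. The median difference of the 4 was -0.80 at 84 h, -0.48 at 95 h and -0.54 at 8 d, against 0.00 at 84 h, 0.00 at 95 h and 0.01 at 8 d over all features. Without the 3 arrays that stand apart 1 keratin was called at 84 h (Krt7), where 6.74% of all features were called. The 4 keratins were chosen with earlier results of these data known. Their counts here and between times are therefore a description and not a test.

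Between times, 2 of 4 were called higher at 95 h than at 84 h in Flk1+ cells (Krt18 and Krt19), where 19.8% of all features were called, 11.2% higher and 8.62% lower, and 2 of 4 had no overlap, against 13.2%. Of the 4, limma called 0 at that step in Flk1- cells, where 3 had an unadjusted p under 0.05 and 1.64% of all features were called, 1.06% higher and 0.585% lower, and 1 of 4 (Krt8) had no overlap, against 9.98%. From 95 h to 8 d 2 of 4 were called higher in Flk1+ cells and 2 of 4 in Flk1- cells, in both sorts Krt8 and Krt19, and the same 2 had no overlap. In Flk1+ cells 22.1% of all features were called at that step, 12.8% higher and 9.31% lower, and 34.6% had no overlap. In Flk1- cells 17.7% were called, 9.88% higher and 7.78% lower, and 27.8% had no overlap. The comparisons at 95 h share arrays with those on either side of it. Krt8 was 0.38 (SE 0.12, adjusted p = 0.0213) higher at 8 d in Flk1+ cells and 0.60 (SE 0.12, adjusted p = 0.000807) higher in Flk1- cells, and the first of these ended without Flk1+ array 4 of 95 h (0.36, adjusted p = 0.0511), without Flk1+ array 3 of 8 d (0.33, adjusted p = 0.074) and on values as deposited (0.33, adjusted p = 0.0535).

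The change of the sort difference itself was tested as an interaction, and limma called 0 of the 4 keratins from 84 h to 95 h, where 2 had an unadjusted p under 0.05 and 0.00573% of all features were called. Those were Krt18, whose sort difference changed by 0.90 (SE 0.41, adjusted p = 0.309), and Krt8, with -0.45 (SE 0.16, adjusted p = 0.278). With the 3 arrays that stand apart left out these were 0.33 (adjusted p = 0.698) for Krt18 and -0.26 (adjusted p = 0.468) for Krt8. From 95 h to 8 d limma called 0 of 4, with 0 at an unadjusted p under 0.05, against 0.533% of all features. A sort difference called at one time and not at another is therefore not shown to differ between times for these genes.

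Krt8 and Krt18 form a filament pair, so their levels were set beside each other on each array. The mean of Krt8 minus Krt18 was 1.17 ± 1.15 in Flk1+ cells at 84 h, with a range from 0.16 to 2.26, against -0.44 ± 0.49 in Flk1- cells, with a range from -0.88 to 0.26 (SD, n = 4). It is an offset between probes whose size has no meaning of its own, and its difference between groups compares the changes of both genes. That difference was 1.61 at 84 h (exact two-sided permutation test, p = 0.0857, adjusted p = 0.15 over 7 comparisons), and without the 3 arrays that stand apart it was 0.84. At 95 h it was 0.26 (exact permutation p = 0.143, adjusted p = 0.2), and at 8 d 0.45 with no overlap (exact permutation p = 0.0286, the smallest that 4 against 4 allows, adjusted p = 0.1).

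Within Flk1+ cells Krt8 minus Krt18 was -0.49 ± 0.17 at 95 h and 1.17 ± 1.15 at 84 h, a difference of -1.66 (exact permutation p = 0.0286, adjusted p = 0.1). Flk1+ arrays 2 and 4 of 84 h, at 2.26 and 2.06, carry it, the other Flk1+ arrays of 84 h being at 0.18 and 0.16. It was -0.66 without the 3 arrays that stand apart. No comparison passed after adjustment, and this measure was chosen after values were seen. Over the 24 arrays Pearson's r between Krt8 and Krt18 was 0.20, between Krt18 and Krt19 0.85, between Krt7 and Krt19 0.60 and between Krt7 and Krt18 0.58. Between Krt8 and Krt19 it was 0.53, and between Krt7 and Krt8 0.32. The 0.20 includes Flk1+ arrays 2 and 4 of 84 h, with Krt18 at -1.46 and -1.08 and Krt8 at 0.80 and 0.98. It was not computed without these arrays, so it does not show how the pair varied on the others. These correlations describe arrays that share groups, reference and platform.

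**Figure D3:**
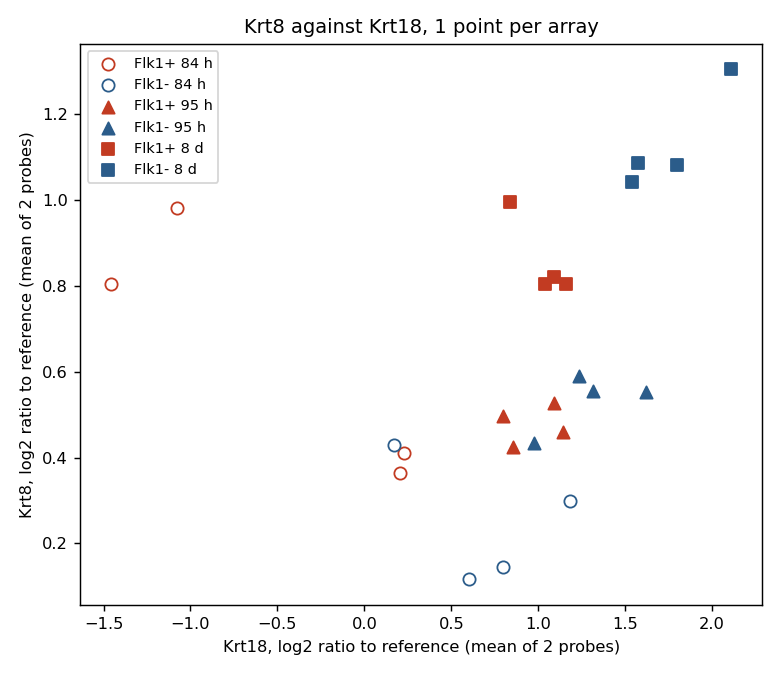
Log2 ratio of Krt8 (vertical axis) against Krt18 (horizontal axis), each the mean of 2 probes, 1 point per array, with colour for the sort and shape for the time. The 2 points at the left, at Krt18 values of -1.46 and -1.08 and Krt8 values of 0.80 and 0.98, are Flk1+ arrays 2 and 4 of 84 h.

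The genes whose course over the 24 arrays was most like each keratin differed by keratin. For Krt7 they were Igfbp2 (Pearson r = 0.91), which encodes a binding protein of insulin-like growth factors, Tmprss2 (r = 0.91), a membrane serine protease of epithelia, Slc45a3 (r = 0.83) and Foxa1 (r = 0.82), a forkhead factor of endoderm and glandular epithelia. Tmprss2 averaged -0.08 in Flk1+ and 1.11 in Flk1- cells at 8 d, and Foxa1 -0.31 and 0.11. For Krt19 they were Anxa2 (r = 0.94), a membrane-binding annexin, Anapc5 (r = 0.93), a subunit of the anaphase-promoting complex, Csrp1 (r = 0.92) and the secreted protease inhibitor gene Cst3 (r = 0.92). Anxa2 averaged -2.63, -1.59 and -0.19 in Flk1+ cells at 84 h, 95 h and 8 d, and -2.06, -1.34 and -0.18 in Flk1- cells.

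For Krt8 the closest genes were Manbal (r = 0.92), Nek6 (r = 0.91), a mitotic kinase, Msrb1 (r = 0.90) and Sel1l (r = 0.89), which acts in degradation of proteins from the endoplasmic reticulum. For Krt18 they were Cers5 (r = 0.94), a ceramide synthase, Gmppb (r = 0.92), Sec24c (r = 0.91), a coat protein of vesicles leaving the endoplasmic reticulum, and Atp6v0d1 (r = 0.91), a subunit of the vacuolar proton pump. These values of r include Flk1+ arrays 2 and 4 of 84 h, where Krt18 was at -1.46 and -1.08. The correlations of the 4 keratins with other genes were not computed without the arrays that stand apart. They therefore do not show a shared course on the other arrays.

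Genes of the surrounding epithelial programme were counted from lists set by gene function, and chosen with earlier results of these data known. The counts of these lists, and of those below, are therefore a description and not a test. Of 22 measured genes of epithelial adhesion, polarity and identity, 0 were higher and 14 lower in Flk1+ cells at 84 h, with a median difference of -0.90, 0 and 12 at 95 h, with a median of -0.74, and 0 and 6 at 8 d, with a median of -0.31, where 8.18%, 1.37% and 0.224% of all features were lower at the 3 times. At 84 h Cldn3, a tight junction claudin, was lower by -1.92 (SE 0.16), the transmembrane protease St14 by -1.66 (SE 0.13), the polarity gene Crb3 by -1.49 (SE 0.18) and Ovol2, a repressor of mesenchymal genes, by -1.57 (SE 0.14). The values were -1.92 for Cldn3, -1.80 for St14, -1.68 for Crb3 and -1.60 for Ovol2 without the 3 arrays. St14 was lower also at 8 d by -0.90 (SE 0.13, adjusted p = 0.000888). Without the 3 arrays that stand apart 13 were lower at 84 h and 10 at 8 d. In that setting 6.74% of all features were called in either direction at 84 h and 0.986% at 8 d.

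From 95 h to 8 d the epithelial genes and the keratins gave different counts. In Flk1- cells 1 epithelial gene was higher (Ocln, a tight junction protein) and 9 were lower, with a median of -0.53, and Epcam was lower by -1.73 (SE 0.29) and Cdh1, E-cadherin, by -1.68 (SE 0.34). In the same cells Krt8 and Krt19 were higher by 0.60 and 0.83. In Flk1+ cells 1 epithelial gene was higher (Ocln, by 0.75) and 5 were lower, with a median of -0.11. Of all features, 9.88% were higher and 7.78% lower at that step in Flk1- cells, and 12.8% and 9.31% in Flk1+ cells. Whether the lists differ was not tested.

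**Figure D4:**
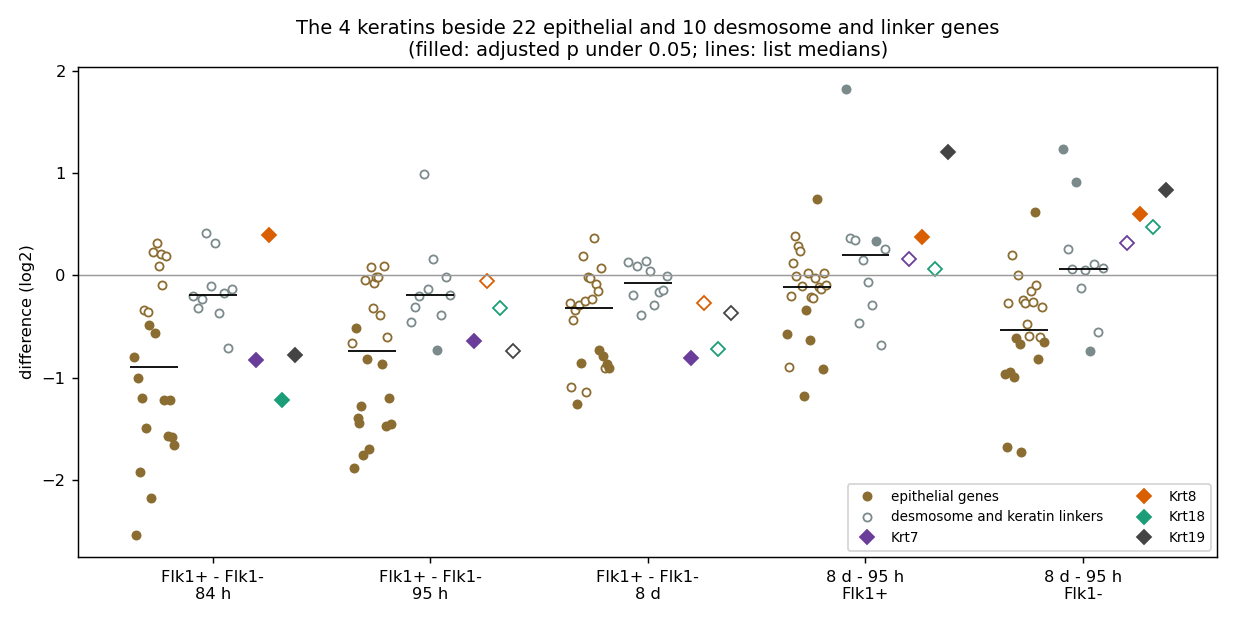
Log2 differences of the 4 keratins (diamonds) beside 22 epithelial genes and 10 desmosome and linker genes (circles), for Flk1+ minus Flk1- at 3 times and for 8 d minus 95 h in each sort; filled symbols passed at adjusted p under 0.05 and lines are list medians. The epithelial medians run from -0.90 to -0.31 for the sorts, and in Flk1- cells at 8 d against 95 h the epithelial median is -0.53 while the keratins lie at 0.32 to 0.83.

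Desmosomes anchor keratin filaments at the membrane. Of 10 measured desmosome and linker genes limma called 0 at 84 h, where 4 had an unadjusted p under 0.05, 1 lower in Flk1+ cells at 95 h (Perp, a desmosomal membrane protein, at -0.73, SE 0.17, adjusted p = 0.0238) and 0 at 8 d, where 0 had an unadjusted p under 0.05. The shares of all features called at these times were 13.5%, 2.03% and 0.373%. At 8 d against 95 h 2 of the 10 were higher and 0 lower in Flk1+ cells, and 2 were higher and 1 lower in Flk1- cells. Over all features 12.8% were higher and 9.31% lower at that step in Flk1+ cells, and 9.88% and 7.78% in Flk1- cells. Dsc2, a desmosomal cadherin, rose between 95 h and 8 d by 1.82 (SE 0.12) in Flk1+ cells and by 1.24 (SE 0.12) in Flk1- cells, and Pkp2, a desmosomal plaque protein, by 0.34 (SE 0.11) in Flk1+ cells. In Flk1- cells Itga6, an integrin of hemidesmosomes, rose by 0.91 (SE 0.27) and Perp fell by 0.74 (SE 0.17, adjusted p = 0.00412), with means of -2.83 at 8 d and -2.09 at 95 h. Jup, or plakoglobin, gave 0.31, 0.16 and 0.04 between the sorts at 84 h, 95 h and 8 d, and Dsg2 gave -0.32, -0.30 and -0.19, none of them called. The 84 h values were 0.11 for Jup and -0.10 for Dsg2 without the 3 arrays. In that setting the linker gene Dst passed at 84 h, lower in Flk1+ cells at -0.49 (adjusted p = 0.028), against -0.23 (adjusted p = 0.335) in the main fit. Leaving out single arrays gave 0 to 3 calls among the 10 at 84 h, while the share of all features called ran from 5.83% to 26.1%.

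The 4 other measured keratins, mostly of stratified epithelia, gave 1 call between the sorts. Of all features, 13.5% were called at 84 h, 2.03% at 95 h and 0.373% at 8 d. Krt10, the type I keratin of differentiating epidermis, was higher in Flk1+ cells at 84 h by 0.41 (SE 0.09, adjusted p = 0.00915), and without the 3 arrays that stand apart by 0.30 (adjusted p = 0.107), which ends the call. Krt14, of basal epidermis, gave 0.10, -0.21 and -0.31 at the 3 times, Krt13 gave 0.07, -0.10 and -0.28, and Krt79 gave -0.37, -0.09 and 0.18, none of them called. At 95 h and 8 d limma called 0 of the 4, with 0 at an unadjusted p under 0.05. Of 8 other intermediate filament genes Vim, vimentin, was higher in Flk1+ cells at 84 h by 0.69 (SE 0.15, adjusted p = 0.00631, and 0.89 without the 3 arrays), and the neurofilament gene Nefl was lower at 84 h and 95 h.

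Marker lists of cell types that carry these keratins, or that the sorts could hold, gave different counts, to be read against 5.3% of all features higher and 8.18% lower at 84 h, 0.659% and 1.37% at 95 h, and 0.149% and 0.224% at 8 d. Of 14 visceral and parietal endoderm markers 3 were higher and 2 lower in Flk1+ cells at 84 h, 0 and 2 at 95 h, and 0 and 4 at 8 d, the last being Foxa2, Ttr, Apoa1 and Col4a1. Their mean level per array ran from -0.55 to -0.45 in Flk1+ cells at 8 d, against 0.05 to 0.57 in Flk1- cells. The part of these cells in the keratin differences was not tested. Of 9 trophectoderm markers 3 were higher and 0 lower in Flk1+ cells at 84 h (Gata3, Hand1 and Eomes, which early mesoderm also expresses, the last not called without the 3 arrays, at 0.41), 2 and 0 at 95 h, and limma called 0 at 8 d, where 1 had an unadjusted p under 0.05.

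Of 7 surface ectoderm markers limma called 0 at 84 h, 95 h and 8 d, with 1, 0 and 0 at an unadjusted p under 0.05, and of 5 mesothelium markers 0 at each time, with 1, 1 and 2. Without the 3 arrays that stand apart the surface ectoderm marker Tfap2b passed at 84 h, lower in Flk1+ cells at -0.32 (adjusted p = 0.0192). Of 10 pluripotency markers 0 were higher and 8 lower in Flk1+ cells at 84 h, 0 and 3 at 95 h, and 0 and 1 at 8 d. Their mean level ran from 0.94 to 1.54 in Flk1+ cells at 84 h, against 2.25 to 2.40 in Flk1- cells. Of 5 endothelial markers 1 was higher at 84 h and 95 h (Kdr) and 3 at 8 d, and of 8 genes of the mesenchymal transition 5 were higher at 84 h, 3 at 95 h and 0 at 8 d by limma, where 2 had an unadjusted p under 0.05. Without the 3 arrays that stand apart 4 pluripotency markers were lower at 84 h and 6 at 95 h, and 2 endoderm markers were higher and 1 lower at 84 h. In that setting 6.74% of all features were called in either direction at 84 h and 4% at 95 h. The main fit called 13.5% and 2.03%. The part of these lists in the keratin differences was not tested.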

How the data were processed

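Log2 ratios of 24 arrays were used as deposited by the authors, per probe. Per the labels, amplified RNA was hybridised with the sample in Cy5 and the pup reference in Cy3. Log base, direction, feature extraction, background correction and normalization are not given in the sources used here. The deposited log2 ratios had a mean of 0 on each array (to 4 decimals) and medians from 0.05 to 0.20. Each array's median was set to 0, probes of 1 gene were averaged, and probes with several genes (559) or none listed (7908) stayed unnamed, which left 17440 features. Entrez identifiers of 11782 of 11813 probes matched, and 0 symbols changed.

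All 24 arrays entered 1 fit (R 4.3.3, limma 3.58.1, lmFit and eBayes; figures Python 3.11.15, matplotlib 3.10.9, pandas 2.3.3) with a mean per group, 18 residual and 3.41 prior degrees of freedom, and Benjamini-Hochberg adjustment over all features; a feature was called at adjusted p under 0.05. The fit was tested on simulated independent normal values with 1 spread per feature over all arrays. It recovered 18.2% of planted changes of 0.5, 76.1% of those of 1 and 94% of those of 2. That test does not cover groups of unequal spread or arrays that stand apart. Settings tried were values as deposited, quantile normalization, only the arrays compared, array weights, the probe of largest SD, each probe alone, named genes only, a replicate block, and leaving out 1 or the 3 arrays that stand apart. For arrays, their number limits the precision.

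Deviations from the group means of Flk1+ and Flk1- samples of 1 number correlated over 0.1 in all 4 pairs at 95 h (0.11 to 0.42) and at 8 d (0.15 to 0.44), and at 84 h in 3 of 4 (-0.13 to 0.53). Samples of 1 number therefore tended to vary together within a time, which may reflect a pairing that the main fit does not use. Correlations between different numbers were not set beside these. The members and lists were chosen with earlier results of these data known. Named were the 4 members, Kdr, the 4 genes most correlated with each member, and up to 4 called genes of each list, of which a part is printed.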

Additional observations from a re-analysis of the deposited data

Results flagged for a closer look

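Of 54 sets of 4 arrays checked, 7 held an array far from the other 3, where chance flags about 1 in 20 groups. Krt7 on Flk1- array 4 of 84 h was -1.25, with the nearest of the others at -1.62. Krt19 on Flk1- array 1 of 84 h was -0.14, with the nearest at -0.77. Probe 6688 of Krt8 on Flk1+ array 1 of 95 h was 0.60, with the nearest at 0.75. The mean of both Krt8 probes was 1.00 on Flk1+ array 3 of 8 d, with the nearest at 0.82, and 1.30 on Flk1- array 3 of 8 d, with the nearest at 1.09. Kdr was 1.89 on Flk1+ array 4 of 8 d, with the nearest at 1.51, and -1.30 on Flk1- array 1 of 95 h, with the nearest at -1.02.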

How the results depend on the processing

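Of the member values under all alternatives, 612 kept direction and side of the threshold, 49 lost the call, 14 gained it and 19 changed sign. Of the 4 keratins, 4 were called between the sorts at 84 h, and 1 with quantile normalization, 1 from only the arrays compared, 2 with array weights, 1 without the 3 arrays that stand apart, and 2 to 4 without single arrays. At 95 h 1 was called, and 0 with quantile normalization, with weights or from only the arrays compared, 2 with the replicate block within time, and 0 to 1 without single arrays. At 8 d 1 was called, and 2 from only the arrays compared, 3 with weights, 2 without the 3 arrays, and 0 to 1 without single arrays. For 95 h against 84 h in Flk1+ cells 2 were called, and 1 with quantile normalization, 0 from only the arrays compared, 0 with weights, 1 without the 3 arrays, and 1 to 3 without single arrays. In Flk1- cells 0 were called at that step by limma (3 at an unadjusted p under 0.05), and 1 with quantile normalization, 3 with weights, 1 without the 3 arrays and 1 with the replicate block, where Krt19 (0.81) passed at adjusted p = 0.0355, although the numbers do not pair samples across times (0 of 16 correlations over 0.1). For 8 d against 95 h 2 were called in each sort, 1 in Flk1+ cells on values as deposited, and 1 to 2 without single arrays in each sort. In Flk1- cells Krt18 passed as well with quantile normalization (0.68, adjusted p = 0.0379) and without the 3 arrays (0.47, adjusted p = 0.0254). In these settings 26.3% and 29.2% of all features were called at that step. Samples of 1 replicate number tended to vary together at 95 h and 8 d, and the block within time changed no other member's call there.

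None of the values that changed sign was called. With quantile normalization Krt7 in Flk1+ cells was -0.081 for 95 h against 84 h and -0.32 for 8 d against 95 h. Krt8 for 95 h against 84 h in Flk1+ cells was 0.053 with array weights and 0.091 without the 3 arrays. By single probes, Krt8 between the sorts at 95 h was 0.044 (7216), and for 8 d against 95 h in Flk1+ cells Krt8 was -0.054 (7216) and Krt18 -0.25 (9754). The change of the sort difference from 84 h to 95 h was -0.23 for Krt7 with quantile normalization, and for Krt19 -0.28 with quantile normalization, -0.35 with weights, -0.28 without the 3 arrays, and -0.13 to 0.19 without single arrays. From 95 h to 8 d it was 0.092 for Krt8 with its probe of largest SD (6688). The cause of these changes was not tested. Over all features, the number called ran from 347 to 4550 between the sorts at 84 h, 135 to 698 at 95 h and 31 to 2332 at 8 d, and from 0 to 5358 for 95 h against 84 h in Flk1+ cells and 70 to 2156 in Flk1- cells. As shares, for 95 h against 84 h, 19.8% of all features were called in Flk1+ cells, and 9.32% with quantile normalization, 0% from only the arrays compared, 4.61% with weights and 5.45% without the 3 arrays. In Flk1- cells 1.64% were called, and 2.1% with quantile normalization, 12.4% with weights and 3.83% without the 3 arrays. Between the sorts at 84 h 13.5% were called, and 7.48%, 1.99%, 20.8% and 6.74% in the same 4 settings. At 8 d these were 0.373%, and 1.25%, 5.46%, 13.4% and 0.986%. Signal over background is not given in the values used here, so dim probes could not be left out.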
